A study of Mus musculus with 7 samples.

Results

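The 10 genes described here are Gpr3, Pde3a, Wee2, Cdc25b, Cdk1, Ccnb1, Mos, Fbxo5, Fbxo43 and Fzr1. They act in the arrest of mouse oocytes at meiotic prophase, in the release from it or, as Mos and Fbxo43 do, in the later arrest at metaphase II. They were taken by gene symbol from a table of 55364 genes, and each symbol matched 1 gene. No cutoff on a measured value was used, but the genes were chosen with earlier results of these data known. The table holds RNA-seq of mini-oocytes, which are oocyte-like cells made in a flat culture from female mouse embryonic stem cells of hybrid 129/C57BL6 strain. The cells were made from the parental line BVSC H18 and carry inducible oocyte transcription factors that are switched on with the small molecule Shield1, which was given from plating and left out of fresh medium from day 12. Cells with 4 factors (Nobox, Figla, Tbpl2 and Lhx8) were termed 4F, and cells with these and Stat3, Dynll1, Sub1 and Sohlh1 were termed 8F. The 4F and 8F cells are separate lines, and the 8F line is stated to carry an Npm2-mCherry reporter. There were 2 libraries of 4F-mini-oocytes at day 7, 3 of 4F-mini-oocytes at day 21 and 2 of 8F-mini-oocytes at day 21.

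Several facts limit these groups as models. All 7 libraries came from cells that carried the induced factors, and uninduced stem cells and ovarian oocytes were not analysed here. The paper reports that markers of meiosis were not induced in mini-oocytes. It also calls unclear how their cell cycle stops without meiosis. Whether these cells were in a meiotic arrest was not tested here, so the values describe RNA levels of the genes and not an arrest. Each day 7 library pooled 1000 cells and each day 21 library pooled 10. Day 7 cells were still given Shield1, whereas day 21 cells had received fresh medium without it from day 12. Effects of day, of Shield1 and of pool size cannot be told apart. All cells derive from 1 parental line, and the labels do not say whether the libraries of a group came from separate cultures, so p-values measure only the spread between libraries, which may be technical. A lower level in a pool can mean fewer expressing cells, less RNA of the gene per cell or a larger share of the library taken by other RNAs. These cannot be told apart.

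Fully grown oocytes wait in meiotic prophase with a high level of cyclic AMP (cAMP). GPR3 is a constitutively active receptor of the oocyte surface that drives cAMP synthesis through Gs, and PDE3A is the phosphodiesterase that breaks cAMP down. cAMP keeps protein kinase A active, which favours WEE2, the oocyte kinase that places an inhibitory phosphate on CDK1, over CDC25B, the phosphatase that removes it. CDK1 with its partner cyclin B1 (Ccnb1) then triggers nuclear envelope breakdown. Cyclin B1 is destroyed by the anaphase-promoting complex (APC/C). During the prophase arrest this ubiquitin ligase is activated by CDH1, encoded by Fzr1, and restrained by EMI1, encoded by Fbxo5. EMI2, encoded by Fbxo43, inhibits the APC/C at the later arrest in metaphase II. MOS, a kinase upstream of the MAP kinases, acts in that same arrest as part of cytostatic factor. Most of this control acts on proteins and their phosphorylation, which RNA levels do not measure.

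The libraries held 9051761 to 17190271 reads on genes, as recovered from the steps of the low values, and the day 7 libraries were the shallowest. The 10 genes were read by 32 to 7433 fragments a library, at 2.98 to 406.2 TPM (transcripts scaled to the same total in each library, after division by gene length), and 3 reads, the limit that a count of 0 would allow, came to at most 0.528 TPM for any of them. Such limits cover counting error only. TPM is a share of the total, and the top 10 genes of each library together held 28.5% and 31.8% of it at day 7 and 10.2% to 14.0% at day 21. The oocyte label was checked on 8 markers (Zp1, Zp2, Zp3, Gdf9, Bmp15, Oosp1, Npm2 and Ddx4), whose summed level was 4091 to 5074 TPM at day 7, 21467 to 24523 TPM in 4F-mini-oocytes at day 21 and 20392 to 20629 TPM in 8F-mini-oocytes, and all 8 were higher at day 21 than at day 7 in the 4F cells. The summed level of 6 granulosa cell markers did not pass 3.98 TPM in any library, and Inha, a defining one, was at 0 in all 7. The sum of 7 pluripotency markers was 61.1 to 81.9 TPM at day 7, 224.3 to 342.5 TPM in 4F-mini-oocytes at day 21 and 122.9 to 163.7 TPM in 8F-mini-oocytes. Among these, Pou5f1, which oocytes also express, rose from 27.3 ± 3.99 (SD, n = 2) to 196.2 ± 61.7 TPM (SD, n = 3) in 4F cells and made up most of the sum there, Esrrb rose from 8.12 to 36.7 TPM and Zfp42 fell from 21.2 to 7.30 TPM. Nanog was at 0 in every day 21 library, and Tdgf1 did not pass 0.0675 TPM in any library.

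The 250 bases upstream of the RefSeq start site were on hand for 7 of the 10 genes (mouse build GRCm38.p6), and 4 of them are shown: Wee2 and Cdk1 because each holds a pattern found in none of the others, and Gpr3 and Cdc25b as examples that hold CCAAT alone. Sequences run 5′ to 3′ on the gene's own strand. Capitals mark matches, on either strand, to CCAAT, to the cell cycle homology element TTTGAA and to the homeodomain core TAATTA, which do not overlap each other here. The sequences lie at chr6:40442613-40442862 on the plus strand for Wee2, chr10:69352913-69353162 on the minus strand for Cdk1, chr4:133212537-133212786 on the minus strand for Gpr3 and chr2:131186698-131186947 on the plus strand for Cdc25b.
Wee2: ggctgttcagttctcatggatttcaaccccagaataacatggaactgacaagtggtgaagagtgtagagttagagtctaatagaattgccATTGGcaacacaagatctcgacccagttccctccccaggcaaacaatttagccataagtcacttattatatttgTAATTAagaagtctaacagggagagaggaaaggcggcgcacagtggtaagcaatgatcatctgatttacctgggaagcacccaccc
Cdk1: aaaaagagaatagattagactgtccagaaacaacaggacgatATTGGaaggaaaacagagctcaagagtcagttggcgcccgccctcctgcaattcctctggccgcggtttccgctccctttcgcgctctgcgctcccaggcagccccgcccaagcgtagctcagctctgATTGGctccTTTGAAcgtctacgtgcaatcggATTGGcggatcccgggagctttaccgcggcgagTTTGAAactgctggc
Gpr3: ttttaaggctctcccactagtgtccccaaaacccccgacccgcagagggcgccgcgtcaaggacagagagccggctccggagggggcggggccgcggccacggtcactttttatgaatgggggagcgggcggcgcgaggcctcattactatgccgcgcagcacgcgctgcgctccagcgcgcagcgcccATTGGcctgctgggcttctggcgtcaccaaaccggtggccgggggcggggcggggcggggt
Cdc25b: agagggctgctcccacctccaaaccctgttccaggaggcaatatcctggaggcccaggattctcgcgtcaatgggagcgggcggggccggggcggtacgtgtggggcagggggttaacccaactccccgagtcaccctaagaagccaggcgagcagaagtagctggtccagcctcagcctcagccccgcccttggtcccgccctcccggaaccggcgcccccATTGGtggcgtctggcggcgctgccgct
CCAAT was present in all 7 promoters (these 4 and those of Ccnb1, Fbxo5 and Fzr1), beside 33.8% of 32851 mouse promoters of the same length. It occurred 3 times in Cdk1 and Fbxo5, 2 times in Ccnb1 and 1 time in each of the others. TTTGAA occurred only in Cdk1, 2 times, beside 16.0% of all promoters, and TAATTA only in Wee2, 1 time, beside 4.84%. Of the other patterns searched, the homeodomain core TAATTG and the TATA box TATAAA were in none of the 7, beside 7.17% and 12.4%. The E-box CANNTG (N for any base) was in Wee2, 2 times, and Cdk1, 1 time, beside 66.2%. The Wee2 window had a GC content of 44.4%, against 56.4% to 72.4% in the other 6 and a median of 52.4% over all promoters. The Wee2 window lies inside the longer gene model of the annotation, between exons. Those of Cdk1, Ccnb1, Fbxo5 and Fzr1 run in part past the annotated gene start into the gene, and those of Gpr3 and Cdc25b do not. A match is a description of letters and not of a bound site.

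The first question was how far the RNA levels of these genes differed between day 7 and day 21 of induction in 4F cells. All 10 genes rose, with no overlap between the 3 day 21 and the 2 day 7 libraries (limma on log2(TPM + 1), Benjamini-Hochberg adjusted p under 0.05 over 21780 genes tested). Across all genes tested, 40.6% passed in either direction (25.3% rose and 15.3% fell), and 56.7% did not overlap, 33.8% being higher at day 21. The median log2 difference was 1.92 over the 10 genes and 0.17 over all genes. The balance of all calls depended on the scaling: 5516 of 8847 called genes were higher at day 21 in TPM as deposited, 4195 of 8632 once rescaled by median of ratios, 4535 of 8368 when quantile-normalized and 3251 of 8676 if recovered reads were fitted by voom. These scalings moved the median of all genes to between -0.32 and 0.09, and the median of the 10 genes then lay between 1.41 and 1.58, with 7, 7 and 6 of the 10 called, all higher. The steepest rises were those of Mos, Fbxo43 and Wee2, and the smallest those of Ccnb1 and Fzr1 in TPM as deposited.

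**Figure D1:**
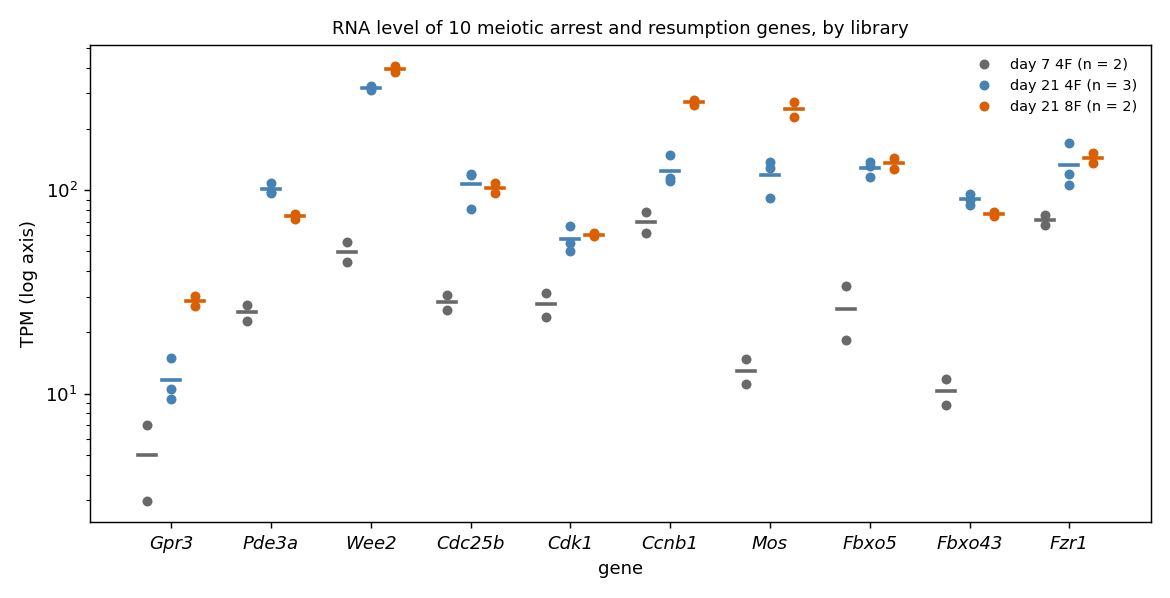
TPM of the 10 genes in each library on a log axis, with genes along the horizontal axis, points for libraries coloured by group and short bars for group means. Every gene lies higher in the 3 day 21 4F libraries than in both day 7 libraries, and Ccnb1, Mos, Gpr3 and Wee2 lie higher again in the 2 day 21 8F libraries.

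Of the cAMP pair, Pde3a (ENSMUSG00000041741.10, chr6:141249269-141507448, plus strand, mm10) was at 22.9 and 27.4 TPM at day 7 and at 108.1, 97.6 and 97.0 TPM at day 21. The day 21 libraries thus stood well clear of the day 7 ones, with means of 25.1 ± 3.23 (SD, n = 2) and 100.9 ± 6.23 TPM (SD, n = 3) and a log2 difference of 1.97 (95% interval 1.66 to 2.27, limma adjusted p = 0.00012). Gpr3 (ENSMUSG00000049649.8, chr4:133209340-133212536, minus strand) was the lowest of the 10 genes in each group. It was at 2.98 and 7.00 TPM at day 7, from 32 and 100 reads, and at 9.45, 10.5 and 14.9 TPM at day 21. The day 7 libraries differed from each other by more than the higher of them differed from the lowest day 21 library. Its log2 difference of 1.14 (95% interval 0.26 to 2.02) passed narrowly, with a limma adjusted p of 0.0471, and passed in 3 of 18 other settings of the analysis, so its rise is the least certain of the 10. Gpr3 shares 204 exonic bases with Cd164l2 on the opposite strand, which was at 77.0 and 75.6 TPM at day 7 and at 107.8 to 108.6 TPM in 4F cells at day 21. The authors' counting, as stated, used no strand and gave a read on both genes to each in part, but the recovered reads of Gpr3 were whole numbers (within 0.01) in 7 of 7 libraries. If the reads of Cd164l2 lay evenly along its exons, those on the shared bases would equal 193% and 80.5% of the Gpr3 reads at day 7 and 47.9% to 85.8% at day 21, 8F cells included. These shares count each such read as whole, and counting it in part would make them smaller. The part of Cd164l2 in the Gpr3 values was not tested.

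Both opponents at the inhibitory site of CDK1 rose. Wee2 (ENSMUSG00000037159.11, chr6:40439088-40466813, plus strand), the oocyte paralogue of Wee1, was at 44.1 and 55.3 TPM at day 7 and at 320.5, 325.8 and 310.7 TPM at day 21. It was the highest of the 10 genes at day 21, above 98.2% of genes tested. The log2 difference was 2.67 (95% interval 2.38 to 2.95, limma adjusted p = 4.79e-05). Cdc25b (ENSMUSG00000027330.16, chr2:131186949-131198497, plus strand) was at 30.5 and 25.9 TPM at day 7 and at 81.2, 118.8 and 120.6 TPM at day 21. Its day 21 libraries were more spread, with a mean of 106.9 ± 22.2 TPM (SD, n = 3), and the log2 difference was 1.87 (95% interval 1.39 to 2.35, limma adjusted p = 0.000674).

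The kinase and its cyclin changed less. Cdk1 (ENSMUSG00000019942.13, chr10:69335146-69352938, minus strand) was at 23.9 and 31.2 TPM at day 7 and at 55.0, 66.9 and 50.0 TPM at day 21, a log2 difference of 1.03 (95% interval 0.60 to 1.46, limma adjusted p = 0.0045). Ccnb1 (ENSMUSG00000041431.16, chr13:100778650-100786570, minus strand) was already among the most abundant of the 10 at day 7, at 61.7 and 77.8 TPM, and reached 148.2, 111.3 and 114.8 TPM at day 21. Its log2 difference was 0.83 (95% interval 0.43 to 1.22, limma adjusted p = 0.00796). That call was lost under 3 other scalings, where the difference was 0.49 (median of ratios), 0.22 (quantile) and 0.29 (voom on recovered reads), and the call for Cdk1 was lost under the last of these. A processed copy, Ccnb1-ps, was at 0.595 to 1.19 TPM at day 7 and at 9.45 to 20.2 TPM in 4F cells at day 21. Because the authors kept uniquely mapped reads, reads that matched both Ccnb1 and its copy would not have been counted. Most genes of cycling cells moved in the same direction: the summed level of 9 markers (Mki67, Top2a, Birc5, Aurkb, Kif11, Mcm5, Rrm2, Tyms and Pcna) was 373.6 to 425.1 TPM at day 7 and 1115 to 1151 TPM in 4F cells at day 21. None of them was at 0, and 7 of the 9 rose, while Rrm2 had a lower mean at day 21 (36.5 to 32.3 TPM). The paper reports that proliferation soon stopped with Shield1, and cell division was not measured here. The part of these markers in the values of Cdk1 and Ccnb1 was not tested.

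Mos (ENSMUSG00000078365.5, chr4:3870657-3872105, minus strand), a gene of 1 exon, had the largest log2 difference of the 10 in TPM as deposited, with Fbxo43 close to it and above it when replicate 2 of day 7 was left out (3.22 against 2.91). It was at 14.8 and 11.1 TPM at day 7, from 84 reads in each library, and at 137.7, 91.5 and 128.7 TPM at day 21. The log2 difference was 3.10 (95% interval 2.58 to 3.62, limma adjusted p = 0.000145), and the means differed 9.22-fold.

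Among the regulators of the APC/C, the differences were larger for the inhibitors than for the activator. Fbxo43 (ENSMUSG00000048230.6, chr15:36150060-36164884, minus strand) was at 8.78 and 11.9 TPM at day 7 and at 95.9, 84.8 and 89.6 TPM at day 21, a log2 difference of 3.02 (95% interval 2.65 to 3.39, limma adjusted p = 6.57e-05). Fbxo5 (ENSMUSG00000019773.7, chr10:5799160-5805600, minus strand) was at 18.3 and 33.8 TPM at day 7, a wide spread, and at 131.1, 116.0 and 137.2 TPM at day 21, a log2 difference of 2.31 (95% interval 1.73 to 2.90, limma adjusted p = 0.000654). Fzr1 (ENSMUSG00000020235.16, chr10:81366222-81378516, minus strand) was the highest of the 10 at day 7, at 67.3 and 75.6 TPM, with Ccnb1 overlapping it. At day 21 it was at 120.7, 106.3 and 170.7 TPM, the largest SD of the 10 in that group, and the log2 difference was 0.86 (95% interval 0.36 to 1.35, limma adjusted p = 0.0161). The call for Fzr1 was lost under the 3 other scalings, with differences of 0.52 (median of ratios), 0.24 (quantile) and 0.31 (voom on recovered reads), and when replicate 1 of day 7 was left out.

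**Figure D2:**
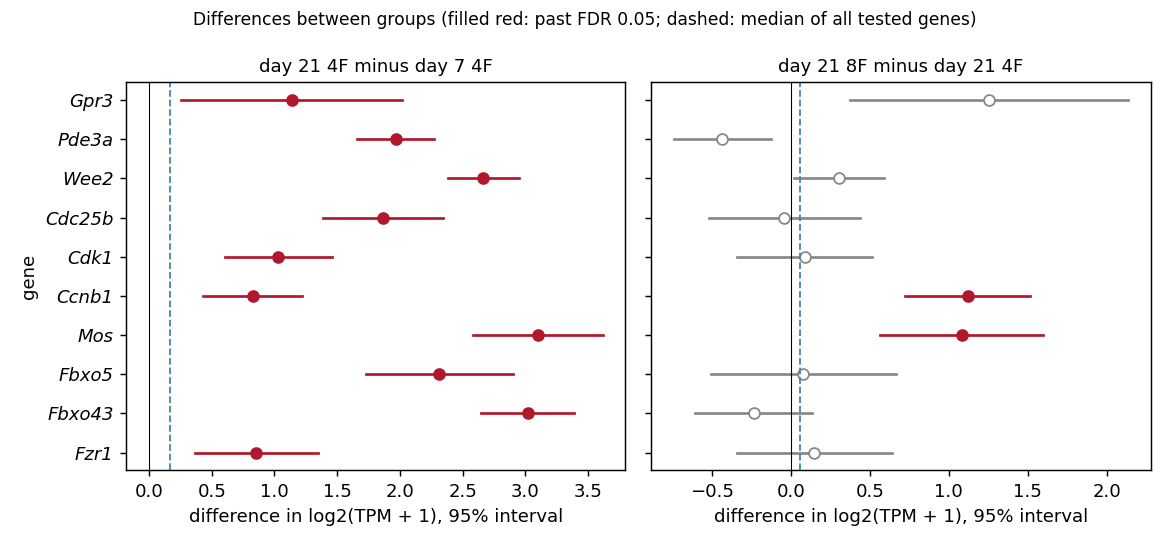
Log2 differences in TPM + 1 of the 10 genes with 95% intervals from the limma fit, for day 21 4F against day 7 4F and for day 21 8F against day 21 4F. Filled red marks genes past the threshold and dashed lines the median of all genes. All 10 intervals of the first comparison lie above 0, whereas in the second those of Gpr3, Wee2, Ccnb1 and Mos lie above 0 and that of Pde3a below it, of which Ccnb1 and Mos passed the adjusted threshold.

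The order of levels among the 10 genes thus differed between day 7 and day 21. At day 7 Fzr1, Ccnb1 and Wee2 were the highest and Gpr3, Fbxo43 and Mos the lowest, with Cdc25b, Cdk1, Fbxo5 and Pde3a between 25.1 and 28.2 TPM on average and each overlapping the next. In 4F cells at day 21 Wee2 stood alone at the top. The next 6, Fzr1, Fbxo5, Ccnb1, Mos, Cdc25b and Pde3a, each overlapped the next in line, with means from 132.6 to 100.9 TPM. Fbxo43, Cdk1 and Gpr3 followed, each clear of its neighbour, and Gpr3 lay above only 55.9% of genes tested.

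The next question was whether these genes differed at day 21 between the line with the larger set of factors and the 4F line. Between 8F- and 4F-mini-oocytes, 2 of the 10 genes passed the threshold, both higher in 8F cells, beside 3.95% of all genes called higher and 4.41% called lower. The 8F cells are a separate line with a reporter, and the 8F columns were written with up to 17 decimals and all 4F columns with up to 9. The set of factors, the line with its reporter and the making of the columns therefore cannot be told apart. The median log2 difference was 0.12 over the 10 genes and 0.06 over all genes. Voom on recovered reads moved these to 0.27 over the 10 genes and 0.26 over all genes.

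Ccnb1 was at 276.8 and 263.3 TPM in 8F cells, against 111.3 to 148.2 TPM in the 3 4F libraries. The groups were far apart, with means of 270.1 ± 9.58 (SD, n = 2) and 124.8 ± 20.4 TPM (SD, n = 3), and the log2 difference was 1.12 (95% interval 0.72 to 1.51, limma adjusted p = 0.0141). Over the other settings it stayed between 1.04 and 1.26, and the call was lost in 4 of 18, among them those without either 8F library, with an adjusted p up to 0.162. Ccnb1-ps, at 9.80 and 10.2 TPM in 8F cells, was not higher there than in 4F cells. Mos was at 272.2 and 229.7 TPM in 8F cells against 91.5 to 137.7 TPM in 4F cells, a log2 difference of 1.08 (95% interval 0.57 to 1.60, limma adjusted p = 0.032). The difference for Mos lay between 0.90 and 1.23 over the other settings and the call was lost in 8 of 18, including each one that left out a day 21 library, with an adjusted p up to 0.297. In both genes the groups did not overlap, but the call for Ccnb1 needed both 8F libraries and that for Mos every day 21 library. The summed cycling markers were 1437 to 1538 TPM in 8F cells, but the higher sum rested on Birc5: the other 8 summed to 720.1 to 749.1 TPM in 4F cells and 572.5 to 600.3 TPM in 8F cells, 7 of them had a lower mean in 8F cells, and the median log2 difference of the list was -0.15. Birc5 was higher (395.1, 392.7 and 402.3 TPM in 4F cells, 937.2 and 864.1 TPM in 8F cells) and Top2a lower (56.9 to 64.7 TPM in 4F cells, 36.6 and 42.6 TPM in 8F cells), the latter call being lost under quantile normalization. Their part in the Ccnb1 value was not tested.

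Gpr3, Pde3a, Wee2 and Fbxo43 also did not overlap but missed the threshold. Gpr3 was at 27.0 and 30.4 TPM in 8F cells, from 430 and 469 reads, against 9.45 to 14.9 TPM in 4F cells, a log2 difference of 1.25 (95% interval 0.37 to 2.13, limma adjusted p = 0.0973). Cd164l2, the gene that overlaps Gpr3, was also higher, at 219.1 and 194.7 TPM against 107.8 to 108.6 TPM. Pde3a was at 72.0 and 76.8 TPM in 8F cells against 97.0 to 108.1 TPM in 4F cells, a log2 difference of -0.43 (95% interval -0.74 to -0.13, limma adjusted p = 0.099). Wee2 was at 406.2 and 382.9 TPM in 8F cells against 310.7 to 325.8 TPM in 4F cells, a log2 difference of 0.31 (95% interval 0.02 to 0.59, limma adjusted p = 0.191). Fbxo43, at 74.7 and 78.1 TPM against 84.8 to 95.9 TPM, had a log2 difference of -0.23 (95% interval -0.60 to 0.14, limma adjusted p = 0.453). Without overlap were 43.8% of all genes tested in either direction, and 24.1% were higher in 8F cells.

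The remaining 4 genes overlapped between 4F and 8F cells. Cdk1 was at 61.7 and 59.4 TPM in 8F cells, inside the range of the 4F libraries, and its log2 difference lay between -0.34 and 0.51 (95% interval). Fbxo5 was at 143.7 and 126.9 TPM (interval -0.51 to 0.67), Cdc25b at 108.0 and 96.8 TPM (interval -0.52 to 0.44) and Fzr1 at 136.4 and 152.0 TPM (interval -0.34 to 0.64). These intervals leave room for differences of up to 0.67 on the log2 scale, so the genes were not shown to be equal. In 8F cells the order was Wee2, above 98.8% of genes tested, then Ccnb1 and Mos, which overlapped each other, then Fzr1 and Fbxo5, which did too, then Cdc25b, then Fbxo43 and Pde3a, which overlapped each other, then Cdk1 and Gpr3.

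Set against day 7, the 8F cells were higher in all 10 genes without overlap, and all 10 passed, beside 37.2% of all genes called in either direction and 24.2% called higher. Of all genes 72.3% did not overlap here, 43.9% being higher in 8F cells. This comparison shares its day 7 libraries with the first one. The log2 differences were 4.18 for Mos (limma adjusted p = 0.000139), 2.97 for Wee2, 2.79 for Fbxo43, 2.39 for Fbxo5 and Gpr3, 1.95 for Ccnb1, 1.83 for Cdc25b, 1.53 for Pde3a, 1.12 for Cdk1 and 1.00 for Fzr1 (limma adjusted p = 0.0141). The call for Gpr3, with an adjusted p of 0.00495, held in 18 of 18 other settings here, and that for Fzr1 in 14.

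Ratios of TPM within a library do not depend on how the libraries are scaled to each other, and 5 were formed between genes that act on each other or on the same step. Each was compared by an exact two-sided permutation test, whose smallest possible p is 0.1 for 3 against 2 libraries and 0.333 for 2 against 2, so none of the 15 comparisons could pass 0.05, adjusted or not. Ccnb1 over Cdk1 was 2.58 and 2.50 at day 7 and 2.70, 1.66 and 2.30 in 4F cells at day 21, which overlap (exact permutation p = 0.6). In 8F cells it was 4.49 and 4.44, above every other library and 2.01 times the mean of the 4F cells (exact permutation p = 0.1). Mos over Cdk1 was 0.617 and 0.356 at day 7, 2.50, 1.37 and 2.58 in 4F cells at day 21 and 4.41 and 3.87 in 8F cells. The 3 groups did not overlap (exact permutation p = 0.1 for the 4F cells of day 21 against either other group).

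Wee2 over Cdc25b, the inhibiting kinase over the activating phosphatase, was 1.45 and 2.14 at day 7 and 3.95, 2.74 and 2.58 in 4F cells at day 21, a 1.72-fold difference of the means without overlap (exact permutation p = 0.1). The 8F cells, at 3.76 and 3.95, overlapped the 4F cells of that day (exact permutation p = 0.3). The summed APC/C inhibitors over the activator, Fbxo5 and Fbxo43 over Fzr1, went from 0.402 and 0.604 at day 7 to 1.88, 1.89 and 1.33 in 4F cells at day 21, a 3.38-fold difference (exact permutation p = 0.1). They were at 1.60 and 1.35 in 8F cells, which overlapped the 4F cells (exact permutation p = 0.6). Gpr3 over Pde3a, the supplier of cAMP over its breakdown, was 0.130 and 0.255 at day 7 and 0.0874, 0.108 and 0.154 in 4F cells at day 21, which overlap (exact permutation p = 0.3). In 8F cells it was 0.375 and 0.395, 3.31 times the 4F mean (exact permutation p = 0.1), above all other libraries.

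**Figure D3:**
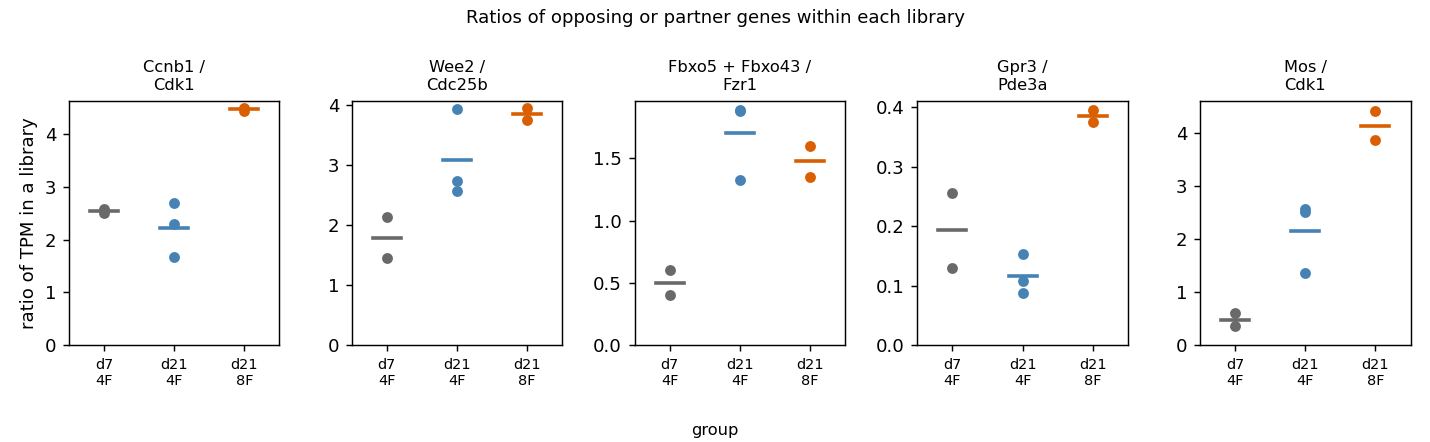
The 5 ratios of TPM in each of the 7 libraries, 1 panel per ratio on linear axes from 0, with points for libraries and bars for group means. Ccnb1 over Cdk1 and Gpr3 over Pde3a stand apart in the 8F libraries, whereas Wee2 over Cdc25b and the summed inhibitors over Fzr1 separate day 7 from both day 21 groups.

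The wider network was followed through 5 lists with 68 further genes, of which 67 were tested (Npr2, the receptor behind cyclic GMP in follicle cells, was too low). Between day 7 and day 21 in 4F cells 35 rose and 4 fell, with a median log2 difference of 0.65. This count moved with the scaling, to 23 and 9 once rescaled by median of ratios, 23 and 10 when quantile-normalized and 16 and 15 of 66 by voom, where the median was 0.13. The median of the MOS and MAP kinase list turned from 0.27 to -0.07, -0.22 and -0.28 in the same order. The genes named for this comparison kept their calls under these scalings, except Rps6ka2 after quantile normalization (adjusted p = 0.0535). Among all genes 25.3% rose and 15.3% fell in TPM as deposited, and by voom 3251 were higher and 5425 lower of 21232. In the cAMP and cGMP list 6 of 13 rose and 1 fell (3 and 1 of 12 by voom). Prkar2a, a regulatory subunit of protein kinase A, rose from 19.2 ± 1.87 (SD, n = 2) to 84.7 ± 2.49 TPM (SD, n = 3) with a log2 difference of 2.09 (limma adjusted p = 0.000121). Pde3b, a relative of Pde3a, rose from 4.00 to 14.9 TPM. In the CDK1 list 10 of 17 passed, all higher in TPM as deposited, but 5 were higher and 0 lower by median of ratios, 7 and 1 by quantile and 3 and 4 by voom. Those that rose under every scaling included Ccna2, encoding cyclin A2 (42.6 to 130.2 TPM), and Cdc25a, a further phosphatase of cyclin-dependent kinases (12.1 to 36.2 TPM).

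Of 9 mitotic kinases and Greatwall partners, 6 passed, all higher in TPM as deposited, against 3 higher and 1 lower by median of ratios and 3 and 2 by quantile and by voom. Aurka, a spindle pole kinase, rose from 53.6 to 225.5 TPM with a log2 difference of 2.06, and Plk1, polo-like kinase, from 56.0 to 253.5 TPM, although its day 7 libraries were far apart, at 26.1 and 86.0 TPM. Of 8 genes of the MOS and MAP kinase arm 2 rose and 2 fell. Map2k1, the kinase MOS acts on, rose from 46.0 to 141.8 TPM and Cpeb1, which binds stored oocyte mRNAs, from 204.5 to 377.7 TPM. The ribosomal S6 kinase Rps6ka2 fell from 4.21 to 0.645 TPM. Its day 21 4F libraries were uneven and low, at 1.63, 0.046 and 0.263 TPM from 76, 2 and 11 reads. Of 20 APC/C genes and partners 11 rose and 1 fell (9 and 4 by median of ratios, 7 and 4 by quantile, 5 and 4 by voom). Bub1b, a checkpoint protein that binds the APC/C activators, rose from 48.3 ± 6.48 (SD, n = 2) to 439.3 ± 39.6 TPM (SD, n = 3), a log2 difference of 3.16 (limma adjusted p = 4.12e-05), close to that of Mos. Camk2g, a calcium-dependent kinase that acts at egg activation, rose from 38.6 to 151.2 TPM. The gene that fell in TPM as deposited was Ube2s, the APC/C's chain-elongating E2 enzyme, from 96.9 to 59.8 TPM.

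In 8F against 4F cells at day 21, 5 of the 67 were higher and 5 lower, with a median log2 difference of 0.07. The counts became 6 and 4 by median of ratios, 5 and 3 by quantile and 10 and 3 of 66 by voom, where the median was 0.22. Ube2s was higher in 8F cells, at 151.6 and 131.9 TPM against 45.2, 66.9 and 67.2 TPM, a log2 difference of 1.25 (limma adjusted p = 0.0189). In the CDK1 list 2 were higher and 2 lower. Cks2, a small partner subunit of CDK1, was at 526.0 and 469.1 TPM against 239.0 to 342.0 TPM, and Ccnh, the cyclin of the CDK-activating kinase, was at 42.4 and 45.1 TPM against 78.6 to 100.3 TPM. In the cAMP list 2 were higher and 1 lower, with Prkar1a, a regulatory subunit of protein kinase A, at 186.8 against 101.0 TPM and Gnas, the Gs subunit that GPR3 acts through, at 60.6 against 96.3 TPM. Arpp19, the Greatwall substrate (63.8 against 102.6 TPM), and Ppp2r2a, a subunit of the phosphatase it inhibits (84.6 against 118.3 TPM), were lower and passed narrowly (limma adjusted p = 0.047 and 0.0496). Ppp2r2a lost its call under all 3 other scalings and Arpp19 under quantile normalization. Gnas had no recovered reads and was not fitted by voom. Of the 8 genes of the MOS and MAP kinase arm 0 passed in limma, with 4 at an unadjusted p under 0.05, and 3 passed with voom on recovered reads, all higher in 8F cells. The 10 limma calls in TPM as deposited stand beside the 8.37% of all genes called in either direction.

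**Figure D4:**
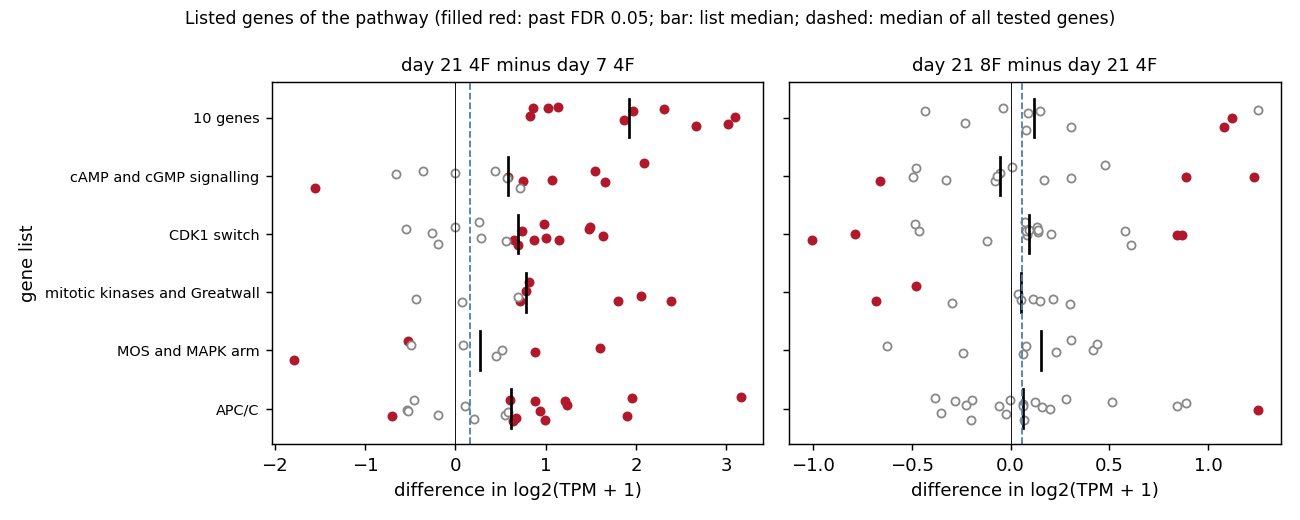
Log2 differences of the 10 genes and of the genes in the 5 further lists, 1 point per gene, for day 21 4F against day 7 4F and day 21 8F against day 21 4F, with bars for list medians, filled red for genes past the threshold and dashed lines for the median of all genes. In the first comparison the lists lie mostly above 0 with medians from 0.27 to 0.78, and in the second they scatter about 0.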

How the data were processed

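Total RNA-seq was measured in 7 libraries made with the SMART-seq stranded kit. The authors trimmed reads (Trim Galore), aligned them to mm10 (HISAT2), removed rRNA reads (bedtools), kept unique alignments and counted exons with featureCounts on GENCODE vM25, sharing reads between overlapping genes. No strand setting is stated. The deposited values are TPM computed by the authors, without the counts behind them, so the count test of the study could not be the main test. Sequencing used different instruments, and which library ran on which is not given in the sources used here.

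Here the 21780 genes that reached 1 TPM in 2 or more libraries were fitted as log2(TPM + 1) with limma (version 3.58.1, under R 4.3.3, eBayes with a trend) over 3 groups that shared 1 estimate of the spread, two-sided, adjusted by Benjamini-Hochberg (threshold 0.05). Fold changes are on that scale and understate those of low genes. Reads were recovered from TPM steps with exon lengths of GENCODE vM21 (same build, matched for 98.1% of genes). Of low values 77.7% to 83.8% were then whole reads and 99.0% to 99.7% multiples of a sixth of a read, which shared reads give, so depth is an estimate.

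The 10 genes and all lists were chosen with earlier results of these data known. From each further list, genes were named in the first 2 comparisons if they passed, did not overlap between groups and reached a mean of 10 TPM, taking the 2 with the largest change. Ube2s, Rps6ka2 and the pluripotency markers given by name were chosen for the first comparison, and Birc5 and Top2a for the second, after their values were seen. One listed gene is not reported here by name. Alternatives were other pseudocounts, filters, scalings, weights and sample sets, a replicate block, voom on recovered reads, and leaving out each library.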

Additional observations from a re-analysis of the deposited data

How the results depend on the processing

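Of the log2 differences of the 10 genes under 18 other settings in 3 comparisons, 484 kept direction and side of the threshold, 39 kept direction only and lost the call, 8 gained a call and 9 changed sign, all 9 in day 21 8F against 4F and none of them called in the values as reported. Cdc25b (-0.04 as reported) became 0.018 (quantile) and 0.12 (voom). Leaving out 1 library gave -0.23 to 0.057 for Cdc25b (positive without 4F replicate 2 or 3 or 8F replicate 2), -0.0039 to 0.20 for Cdk1 (negative without 4F replicate 3) and -0.0093 to 0.17 for Fbxo5 (negative without 8F replicate 1). The cause was not tested. In that comparison the genes called (1822) became 994 without the trend and 3572 with array weights, and the 2 members called became 1 with no filter, 0 without the trend, and 4 with array weights, with only the 2 groups compared, or with voom. For day 21 against day 7 in 4F cells voom left 6 of the 10 members called.

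Leaving out 1 library gave 6472 to 8379 genes and 8 to 10 members for day 21 4F against day 7, and 86 to 2231 genes and 0 to 3 members for day 21 8F against 4F, where 86 and 98 genes were left without 8F replicate 1 or 2 and 1030, 1077 and 1068 without 4F replicate 1, 2 or 3. It gave 3642 to 8377 genes and 9 to 10 members for 8F against day 7, with 3777 and 3642 without either 8F replicate. A lone library was then assumed to vary like the other groups. Same-numbered libraries did not deviate together (correlations from -0.037 to 0.011). In a group of 2 libraries the deviations mirror each other, so these correlations cannot decide whether libraries share a culture or batch. A replicate block, which leaves 4F replicate 3 without weight, called 164 genes and 0 members for 8F against 4F at day 21, with 0.057 for Cdc25b and -0.0039 for Cdk1. Gpr3 rested on 32 and 100 reads at day 7.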
